A study of Rattus norvegicus with 10 samples.

Results

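Kinesins are the motor proteins that walk along microtubules on the energy of ATP, and 38 of their genes were followed here in rat testes. They are the genes whose symbol in the array's annotation is Kif followed by a number and at most 2 letters, or Klc followed by a number, taken from probe sets that name no other gene, out of 18166 named genes on the array. Where a gene had several probe sets, as Kif28p did, only the brightest probe set by its mean was used. By the role they are best known for, 13 act in the spindle or in cytokinesis, 8 in cilia and flagella, 14 in the transport of cargo and 3 in none of these. Left out were 5 probe sets that name a numbered Kif or Klc gene together with another gene. Of the kinesins listed by role, Kif1b, Kif14, Kif17, Kif19, Kif21a and Kif25 had no probe set naming them alone. The minus-end motors named Kifc stand outside the rule.

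The rats were of the Zucker strain, whose fa/fa animals become obese through a defect of the leptin receptor, and the labels give an age of 14 weeks and sexual maturity for each of them. There were 4 arrays of under-developed testes and 4 of normally developed testes from obese rats, and 2 of normally developed testes from lean rats. Testis RNA was hybridised with a biotin label to an Affymetrix rat array. The labels give the model as Zucker (fa/fa) for every sample, the lean ones included, so the genotype of the lean rats is not settled. The arrays are called biological replicates, but nothing says that each testis came from a different animal, so p-values measure only the spread between these samples. Values are log2 expression after RMA, so a difference of 1 is a 2-fold difference in signal.

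As background, most kinesins move toward the plus end of the microtubule, and each family carries a load of its own. In dividing cells, meiotic spermatocytes among them, kinesins slide, shorten and cross-link spindle microtubules and build the midbody. In cilia and in the growing sperm tail, heterotrimeric kinesin-2 carries intraflagellar transport trains outward. In nearly all cells conventional kinesin, built of Kif5 heavy chains and Klc light chains, moves vesicles and organelles.

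The under-developed group was not uniform. Over all genes, which are not independent replicates, the 6 normal arrays correlated at r from 0.994 to 0.997 (15 pairs). Under-developed replicate 4 correlated with them at 0.994 to 0.995, replicate 2 at 0.939 to 0.950, replicate 1 at 0.845 to 0.862 and replicate 3 at 0.720 to 0.737. By their mean, spermatocyte, spermatid, Sertoli cell, Leydig cell and macrophage markers also differed most in replicates 1 and 3 and least in replicate 4. Single markers could depart from this. The Leydig cell marker Cyp11a1 differed from the normal obese mean by 0.62, 0.12, −0.01 and −0.80 log2 in replicates 1 to 4. Prm1, the protamine of spermatids, had 9.49, 12.12, 9.66 and 12.34 log2 in under-developed testes, against 12.35 to 12.43 in normal obese testes, and Insl3, a Leydig cell hormone, had 12.14, 11.83, 12.88 and 9.68, against 9.87 to 10.19. The mean level of 12 spermatid markers ran from 7.90 to 11.99 log2 in under-developed testes, against 12.02 to 12.07 in normal obese testes, and that of 12 spermatocyte markers from 6.31 to 9.92, against 9.84 to 9.97. For 13 Sertoli cell markers it ran from 7.81 to 9.42, against 7.74 to 7.85, for 7 Leydig cell markers from 7.75 to 9.61, against 7.70 to 8.24, and for 10 macrophage markers from 7.20 to 9.97, against 7.03 to 7.52. The mean level of 10 spermatogonia markers ran from 7.09 to 7.34 in under-developed testes, against 7.16 to 7.22 in normal obese testes. That mean covers markers that went opposite ways. Kit differed from the normal obese mean by 2.04, 1.37, 2.52 and −0.03 log2 in replicates 1 to 4, and Sohlh2 by −1.39, −1.08, −2.52 and −0.05. Without replicate 4 limma called 2 of the 10 higher and 3 lower, against 29.6% and 26.4% of all genes. The mean level of 6 epididymis markers lay between 4.91 and 5.17 in under-developed and between 4.90 and 4.95 in normal obese testes. In whole testis, fewer cells of a type and less RNA per cell cannot be told apart, and the part of cell make-up in the kinesin values below was not tested. Replicate 4 thus stood with the normal arrays although it is labelled under-developed, and whether its label is right was not tested. Each result is therefore given for every under-developed array, and each count with all arrays and without under-developed replicate 4, an omission chosen with its values known.

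Comparing under-developed with normal testes of obese rats, some kinesins were lower and some higher. In under-developed replicates 1 to 3, 11 of 13 motors of the spindle and 7 of 8 of the cilium and flagellum were lower, with up to 39.4-fold less signal (Kif2b, replicate 3), the exceptions being Kif4a, Kif4b and Kif3c. The transport genes Kif21b, Klc3 and Kif16b were lower too, whereas Kif5b, Klc1, Kif1c, Kif13a and Kif13b, genes of general transport, were higher by up to 3.79-fold. Kif1a and Kif3c were higher by less (0.33 and 0.57 log2 in limma without replicate 4). A difference between the roles was not tested. Replicate 4 differed from the normal obese mean by no more than −0.24 to 0.40 log2 in any kinesin gene, and lay within the range of the normal obese arrays for 22 of the 38. With all arrays limma called 0 of the 38 genes (0.0% of all genes were called), with adjusted p from 0.0702 to 0.976, while 27 had an unadjusted p under 0.05 (7 higher and 20 lower), against 46.6% of all genes (24.4% higher and 22.3% lower). Without replicate 4, limma called 29 kinesin genes, 22 lower and 7 higher, with adjusted p from 6.4e-05 to 0.0282. With all arrays and array weights, which lowered the weight of the under-developed arrays, 29 were called as well (54.3% of all genes). Replicate 4 had the lowest weight (0.0619, against 0.967 for replicate 1), so this count is no independent check on its omission. Without replicate 4 the 29 genes were 76.3% of the kinesin genes, against 56.0% of all genes. The share called lower was 57.9%, against 26.4% of all genes, while the share called higher was 18.4%, against 29.6%. The median difference was −0.60 log2 over the kinesins and 0.06 over all genes with all arrays, and −0.79 and 0.07 without replicate 4. These shares depend on scaling. Without replicate 4, median centring called 5 kinesin genes higher and 23 lower, and a further quantile step 6 and 23. Centring on ribosomal protein genes called 3 and 31, and centring on Sertoli cell genes 0 and 34. These scalings put the median of all genes at −0.04, 0.02, −0.67 and −1.34 log2. Of all 18166 genes they called 4490, 5048, 2220 and 836 higher and 5411, 4605, 12641 and 15902 lower. Ribosomal protein and Sertoli centring thus called most genes lower, kinesin or not.

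**Figure D1:**
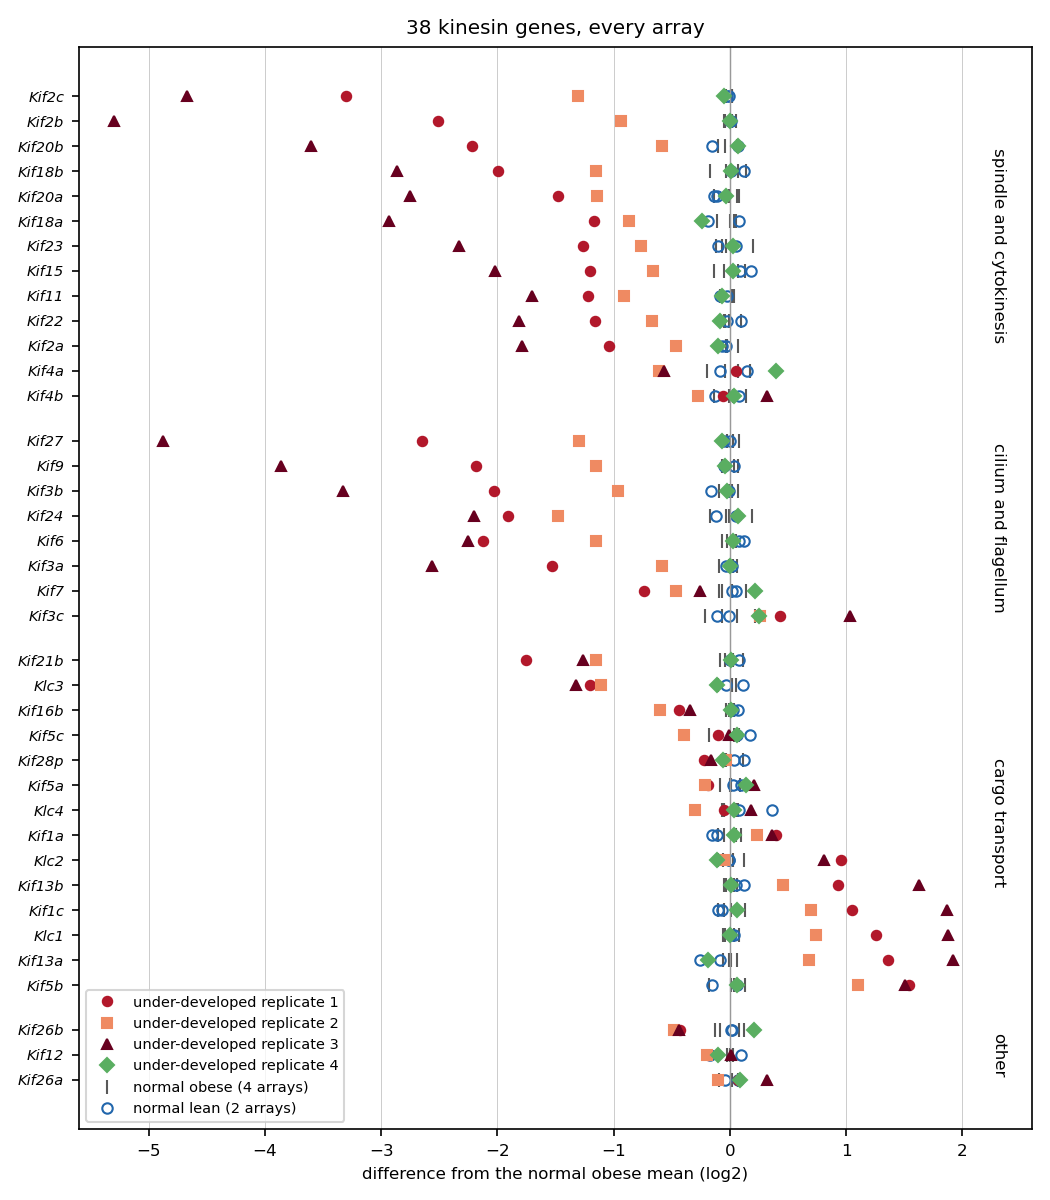
Difference of every array from the normal obese mean (x axis, log2) for the 38 kinesin genes (rows, grouped by role). Under-developed replicates 1 to 3 lie far to the left for most spindle and ciliary motors and to the right for transport motors such as Kif5b, whereas replicate 4 lies between −0.24 and 0.40.

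Counted array by array, 19 kinesin genes were at least 2-fold below the normal obese mean in under-developed replicate 1 (15.6% of all genes), 9 in replicate 2 (6.18%), 19 in replicate 3 (16.8%) and 0 in replicate 4 (0.0055%). At least 2-fold above it were 4 in replicate 1 (15.5% of all genes), 1 in replicate 2 (7.56%), 6 in replicate 3 (19.2%) and 0 in replicate 4 (0.0385%). With all 4 under-developed arrays, 6 kinesin genes did not overlap with the normal obese arrays, 5 lower (Kif2c, Kif18a, Klc3, Kif22 and Kif2a) and 1 higher (Kif3c), which is 15.8% of them, against 17.8% of all genes (10.4% lower and 7.44% higher). Without replicate 4, 22 lay wholly below and 7 wholly above the normal obese arrays, against 27.8% and 30.7% of all genes, 58.5% together. In an exact two-sided permutation test of 4 against 4 arrays these 6 reached p = 0.0286, the smallest it can give, and 0 genes passed after adjustment over all genes.

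Of the 13 spindle and cytokinesis kinesins, 11 fell without replicate 4 and 0 rose, against 26.4% and 29.6% of all genes, and 0 passed with all arrays. The median of the group was −1.08 log2 with all arrays and −1.45 without replicate 4. By their mean, spermatocyte and spermatid markers stood lower in replicates 1 to 3 too, and a link with these kinesins was not tested. Kif2c, a kinesin-13 that removes tubulin from microtubule ends at the centromere, stood at 8.52, 10.51, 7.14 and 11.77 log2 in under-developed replicates 1 to 4, against 11.83, 11.83, 11.78 and 11.82 in normal obese and 11.79 and 11.80 in normal lean testes. Replicate 3 was lowest, and replicate 4 lay just under every normal array. Its limma difference was −2.33 ± 0.84 (SE, adjusted p = 0.0726) with all arrays and −3.09 ± 0.63 (adjusted p = 2.95e-03) without replicate 4. Kif2b, a relative of Kif2c that acts on kinetochore microtubules, had 9.55, 11.13, 6.77 and 12.07 log2 in under-developed testes, against 12.03, 12.09, 12.02 and 12.12 in normal obese testes and 12.08 and 12.07 in normal lean testes. Here replicate 4 lay among the normal arrays, and the limma difference was −2.19 ± 0.95 (adjusted p = 0.102) with all arrays and −2.92 ± 0.81 (adjusted p = 0.014) without it.

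The motors of the central spindle and midbody followed. Kif20b, which acts late in cytokinesis, had 8.19, 9.83, 6.80 and 10.48 log2 in under-developed testes, against 10.47, 10.48, 10.37 and 10.31 in normal obese testes, a limma difference of −2.13 ± 0.56 without replicate 4 (adjusted p = 0.0109). Kif20a, which carries the chromosomal passenger complex to the central spindle, had 7.39, 7.74, 6.13 and 8.85 against 8.94, 8.96, 8.74 and 8.87. For Kif23, the motor subunit of centralspindlin, the values were 7.46, 7.95, 6.39 and 8.74 in under-developed and 8.69, 8.65, 8.92 and 8.60 in normal obese testes. In all 3 genes replicates 1 to 3 lay below every normal array and replicate 4 did not lie below them. Kif11, the tetrameric motor that pushes spindle poles apart, had 7.07, 7.38, 6.58 and 8.22 in under-developed testes, against 8.21, 8.33, 8.31 and 8.31 in normal obese testes, and differed by −1.28 ± 0.17 in limma without replicate 4 (adjusted p = 3.64e-04). The plus-end motors Kif18a and Kif18b, which limit chromosome movement and microtubule growth, differed from the normal obese mean in replicates 1 to 4 by −1.17, −0.87, −2.93 and −0.24 log2 and by −1.99, −1.15, −2.86 and 0.01. The spindle motor Kif15, the chromosome-arm motor Kif22 and the depolymerase Kif2a fell by 1.10 to 1.29 log2 without replicate 4 in limma (adjusted p from 2.00e-03 to 6.13e-03).

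The exceptions were the chromosome-binding motor gene Kif4a and its relative Kif4b. Kif4a, the X-linked gene, had 6.89, 6.23, 6.27 and 7.24 log2 in under-developed testes, against 7.01, 6.91, 6.80 and 6.64 in normal obese testes. Replicates 2 and 3 were below and replicate 4 above the normal arrays, so the groups overlapped, with a limma adjusted p of 0.553 with all arrays and 0.10 without replicate 4. Kif4b had 6.24, 6.03, 6.62 and 6.34 against 6.44, 6.16, 6.33 and 6.29, with a limma difference of 0.01 ± 0.14 (adjusted p = 0.976). Signal shared between probe sets of these related genes was not tested.

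All 8 kinesins of the cilium and flagellum were called without replicate 4, 7 lower and 1 higher, against 26.4% and 29.6% of all genes, and 0 with all arrays, and the group median was −1.38 log2 with all arrays and −1.85 without replicate 4. Kif27, which mouse work ties to motile cilia, stood at 8.50, 9.86, 6.27 and 11.08 log2 in under-developed replicates 1 to 4, against 11.13, 11.23, 11.18 and 11.08 in normal obese testes and 11.10 and 11.15 in normal lean testes. Replicate 3 carried 29.4-fold less signal than the normal obese mean. The limma difference of Kif27 was −2.22 ± 0.84 (adjusted p = 0.0776) with all arrays and −2.94 ± 0.67 (adjusted p = 5.24e-03) without replicate 4. Kif9, a motor of the central apparatus of the mouse sperm tail, had 8.40, 9.43, 6.72 and 10.54 in under-developed testes, against 10.65, 10.62, 10.51 and 10.54 in normal obese testes, and differed by −2.40 ± 0.51 without replicate 4 in limma (adjusted p = 3.81e-03). Kif6, which acts in ependymal cilia of the mouse, differed by −2.12, −1.15, −2.25 and 0.03 log2 in replicates 1 to 4. The centriolar depolymerase gene Kif24 differed by −1.91, −1.48, −2.20 and 0.07.

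The subunits of heterotrimeric kinesin-2 moved together. Kif3a had 8.95, 9.90, 7.92 and 10.47 log2 in under-developed testes, against 10.47, 10.54, 10.51 and 10.39 in normal obese testes. Its motor partner Kif3b had 8.61, 9.69, 7.32 and 10.63, against 10.67, 10.72, 10.56 and 10.64. Kifap3, the non-motor subunit that is no member by the rule, had 10.74, 11.37, 9.78 and 12.00, against 12.02, 12.09, 12.01 and 12.05. In each of the 3 genes the under-developed arrays stood in the order of replicates 3, 1, 2 and 4 from low to high. The limma differences without replicate 4 were −1.56 ± 0.37 for Kif3a (adjusted p = 6.78e-03), −2.11 ± 0.44 for Kif3b (adjusted p = 3.58e-03) and −1.41 ± 0.30 for Kifap3 (adjusted p = 4.09e-03). Kif3c, a paralogue of Kif3b that can pair with Kif3a in neurons, went the other way, with 7.01, 6.84, 7.61 and 6.83 log2 in under-developed testes, against 6.80, 6.64, 6.37 and 6.51 in normal obese testes. It differed by 0.57 ± 0.19 without replicate 4 in limma (adjusted p = 0.0282), but not under median centring (0.47, adjusted p = 0.0655), and by −0.16 with arrays centred on ribosomal protein genes and −0.83 on Sertoli cell genes. Kif7, which acts on hedgehog signalling at the ciliary tip, fell by 0.49 log2 without replicate 4 (limma adjusted p = 0.0108) and differed by 0.22 in replicate 4.

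**Figure D2:**
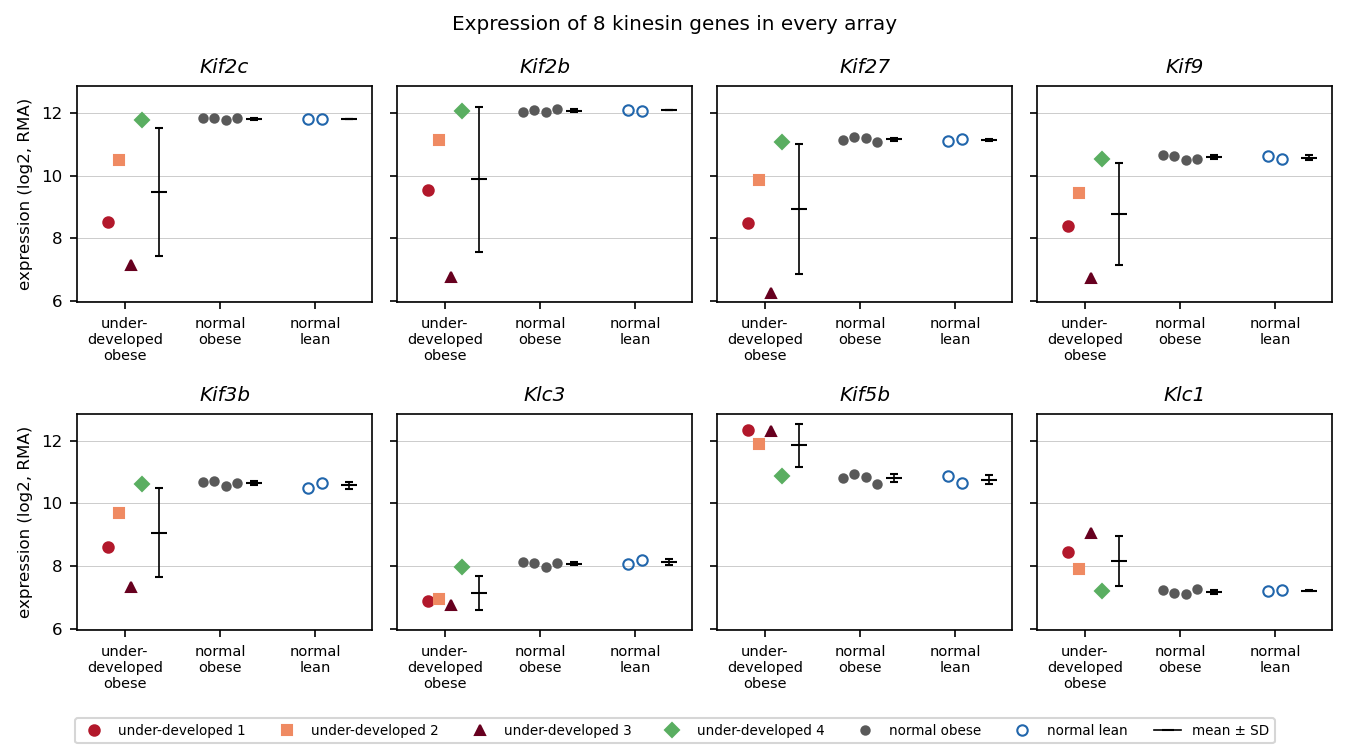
Expression (y axis, log2 after RMA) of 8 kinesin genes in each array of the 3 groups, with the mean and SD beside the points. The 4 normal obese arrays of Kif2c lie between 11.78 and 11.83, and under-developed replicates 3, 1 and 2 at 7.14, 8.52 and 10.51, whereas for Kif5b replicates 1 to 3 lie above every normal array.

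The 14 cargo transport kinesins went both ways. Without replicate 4, 6 rose (Kif5b, Kif13a, Klc1, Kif1c, Kif13b and Kif1a), 3 fell (Kif21b, Klc3 and Kif16b) and 5 were not called, that is 64.3% called, against 56.0% of all genes (26.4% lower and 29.6% higher), while 0 passed with all arrays, and the group median was 0.12 log2 with all arrays and 0.14 without replicate 4. Kif5b, the heavy chain of conventional kinesin that most cell types use, had 12.34, 11.89, 12.31 and 10.86 log2 in under-developed testes, against 10.81, 10.93, 10.84 and 10.62 in normal obese testes and 10.86 and 10.65 in normal lean testes. Replicates 1 to 3 lay above every normal array and replicate 4 among them. The limma difference was 1.05 ± 0.30 (adjusted p = 0.0702) with all arrays and 1.38 ± 0.14 (adjusted p = 1.19e-04) without replicate 4, and −0.02 with arrays then centred on Sertoli cell genes. Klc1, its widely expressed light chain, had 8.45, 7.92, 9.06 and 7.19 in under-developed testes, against 7.22, 7.14, 7.12 and 7.26 in normal obese testes, a difference of 1.29 ± 0.23 without replicate 4 (limma adjusted p = 1.40e-03) that became −0.11 on Sertoli centring. The Golgi and vesicle motor gene Kif1c had 7.09, 6.74, 7.90 and 6.09, against 5.94, 6.17, 5.99 and 6.05. Its difference of 1.21 ± 0.24 (limma adjusted p = 2.54e-03) became −0.20 on Sertoli centring and was 0.47 (adjusted p = 0.0544) on ribosomal protein centring.

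The endosomal motor gene Kif13a differed by 1.36, 0.68, 1.92 and −0.19 log2 in replicates 1 to 4, and Kif13b, which carries membrane-associated cargo, by 0.93, 0.46, 1.63 and 0.01. Without replicate 4, Kif13a was still called on ribosomal protein centring (0.59, limma adjusted p = 0.0198) and lay at −0.08 on Sertoli centring. Kif13b lost its call on ribosomal protein centring (0.27, limma adjusted p = 0.206) and was called lower on Sertoli centring (−0.40, adjusted p = 0.0423). Kif1a, the motor of synaptic vesicle precursors, rose by the least, 0.33 ± 0.10 without replicate 4 (limma adjusted p = 0.0163), which was 0.23 with adjusted p = 0.0775 after median centring and −0.40 and −1.07 on ribosomal protein and Sertoli centring. Klc2, another light chain, had 9.72, 8.72, 9.58 and 8.65 in under-developed testes, against 8.89, 8.71, 8.67 and 8.80 in normal obese testes. Replicates 1 and 3 stood above the normal arrays and replicate 2 did not, and the difference without replicate 4 just missed the threshold (0.57 ± 0.22, limma adjusted p = 0.0504). By their mean, Sertoli cell, Leydig cell and macrophage markers stood higher in the same arrays as these transport genes, but not every marker did. Without replicate 4 limma called 9 of 13, 5 of 7 and 10 of 10 of them higher, against 29.6% of all genes. The Sertoli cell marker Amh was called lower (−0.28, limma adjusted p = 0.0326), and Sox9 was not called (0.32, adjusted p = 0.082).

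Among the transport kinesins that fell without replicate 4, Klc3, the light chain that binds outer dense fibres in rat spermatids, had 6.87, 6.96, 6.76 and 7.96 log2 in under-developed testes, against 8.13, 8.10, 7.98 and 8.10 in normal obese testes and 8.05 and 8.19 in normal lean testes. All 4 under-developed arrays lay below the normal obese arrays, replicate 4 by 0.02 log2. The limma difference was −0.94 ± 0.24 (adjusted p = 0.0702) with all arrays and −1.21 ± 0.10 (adjusted p = 6.4e-05) without replicate 4. Kif21b, a motor known from neurons and lymphocytes, had 5.79, 6.39, 6.28 and 7.56, against 7.46, 7.57, 7.50 and 7.65, so that replicate 1 rather than replicate 3 was lowest. Kif16b, which moves early endosomes, had 8.65, 8.50, 8.76 and 9.11, against 9.08, 9.13, 9.11 and 9.06, and differed by −0.46 ± 0.09 without replicate 4 (limma adjusted p = 2.98e-03). The neuronal heavy chains Kif5a and Kif5c, the light chain Klc4 and Kif28p differed by −0.17 to −0.05 log2 without replicate 4, with limma adjusted p from 0.252 to 0.762.

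Of the 3 remaining genes, Kif26b fell by 0.45 log2 without replicate 4 (limma adjusted p = 3.87e-03). It had 5.96, 5.90, 5.95 and 6.60 log2 in under-developed testes, against 6.47, 6.31, 6.26 and 6.51 in normal obese testes, with replicate 4 above all of these. Kif12 and Kif26a were not called, at −0.13 ± 0.10 and 0.10 ± 0.12.

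The under-developed arrays stood in a common order in most kinesins. Of the 22 genes lower without replicate 4, 18 were lowest in replicate 3, then in replicates 1, 2 and 4 (81.8%, against 58.6% of the 4790 genes lower over all), the exceptions being Kif16b, Kif21b, Kif26b and Kif7. Of the 7 higher, 5 had the same order from the top (71.4%, against 59.9% of 5381), the exceptions being Kif1a and Kif5b. How far replicate 2 followed replicate 3 differed between genes. Its difference from the normal obese mean was 16.0% of that of replicate 3 for Kif20b, 17.7% for Kif2b, 26.6% for Kif27 and 28.0% for Kif2c, and 67.0% for Kif24, 84.2% for Klc3 and 91.4% for Kif21b. For the mean of the marker lists this share was 19.3% in spermatids, 21.5% in spermatocytes, 50.3% in Leydig cells, 63.3% in macrophages and 67.5% in Sertoli cells. Among the kinesins that rose it was 72.6% for Kif5b, but 39.3% for Klc1, 37.6% for Kif1c, 35.5% for Kif13a, 28.2% for Kif13b and 25.1% for Kif3c. Replicate 1 reached 39.9% of replicate 3 for Kif18a, 47.4% for Kif2b, 86.8% for Kif24, 94.3% for Kif6 and 138.7% for Kif21b. These shares rest on 1 array each and have no replicate check.

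**Figure D3:**
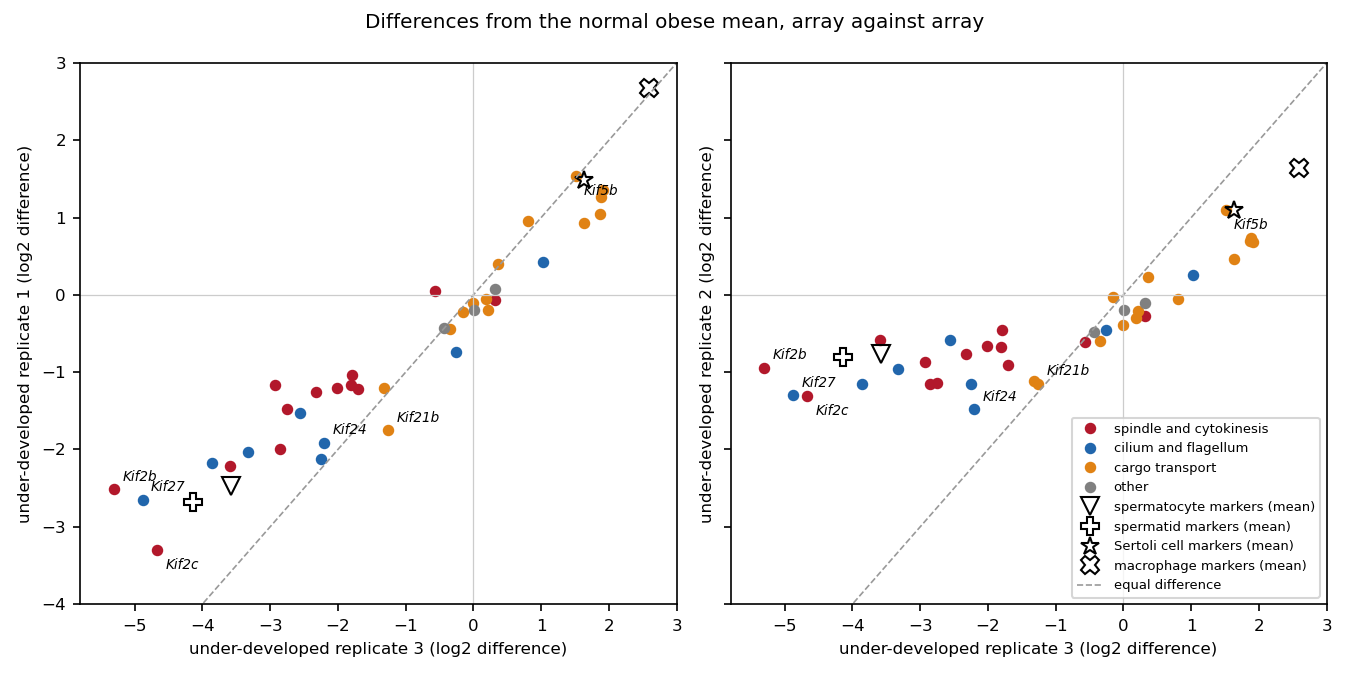
Difference from the normal obese mean (log2) in under-developed replicate 1 (left) and replicate 2 (right) on the y axis against replicate 3 on the x axis, for 38 kinesin genes coloured by role and for the means of 4 marker lists (open symbols). The dashed line marks equal differences, and Kif5b lies near it on the left whereas Kif2b, at 47.4% and 17.7% of replicate 3, lies far above it.

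Lists of genes that work with the kinesins were set beside the members. Of 21 intraflagellar transport genes, whose complexes ride on kinesin-2, 17 fell and 0 rose without replicate 4 (81.0%, against 26.4% of all genes lower and 56.0% called), with a median of −1.50 log2. Ift22 differed by −2.15, −0.92, −3.12 and −0.08 log2 in replicates 1 to 4 and Dync2li1, a light intermediate chain of the returning dynein, by −2.33, −0.91, −2.93 and −0.16. Ift20 and Wdr19 were not called, with −0.09, 0.03, −0.43 and −0.03 and with 0.09, 0.00, 0.41 and 0.11. Of 16 central spindle and chromosomal passenger genes, 15 fell and 1 rose, against 26.4% and 29.6% of all genes. Plk1, a mitotic kinase, differed by −1.91, −1.23, −4.39 and −0.07, and Ect2, which centralspindlin brings to the division plane, by −2.09, −1.18, −4.02 and −0.03. Tpx2, a spindle assembly factor, differed by 1.56, 0.75, 1.42 and −0.12.

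Cytoplasmic dynein and dynactin, the machinery of transport in the opposite direction, had 11 of 24 genes lower and 7 higher without replicate 4, against 26.4% and 29.6% of all genes, so the share higher was near that of all genes. Hook1, an adaptor needed for the manchette of mouse spermatids, differed by −1.65, −0.66, −3.55 and 0.02 log2. The light chain paralogues Dynlrb1 and Dynlrb2 went opposite ways, Dynlrb1 by 2.40, 1.72, 2.51 and −0.08 and Dynlrb2 by −1.98, −0.62, −3.22 and −0.27. Of 16 kinesin partners and adaptors, 7 fell and 3 rose, against 26.4% and 29.6% of all genes. In all 62.5% were called, near the 56.0% of all genes, while the split by direction leaned toward lower. The Kif5 adaptor gene Grip1 differed by −1.96, −1.08, −2.92 and −0.03, and Clstn1, which binds Klc1, by 1.23, 0.76, 1.65 and −0.02. Of the 3 Kifc genes, Kifc3 differed by −1.84, −1.28, −1.25 and 0.00 and Kifc1 by −0.80, −0.47, −1.26 and −0.09, and both fell without replicate 4, whereas Kifc2 was not called. With all arrays 0 genes of any of these lists passed in limma.

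**Figure D4:**
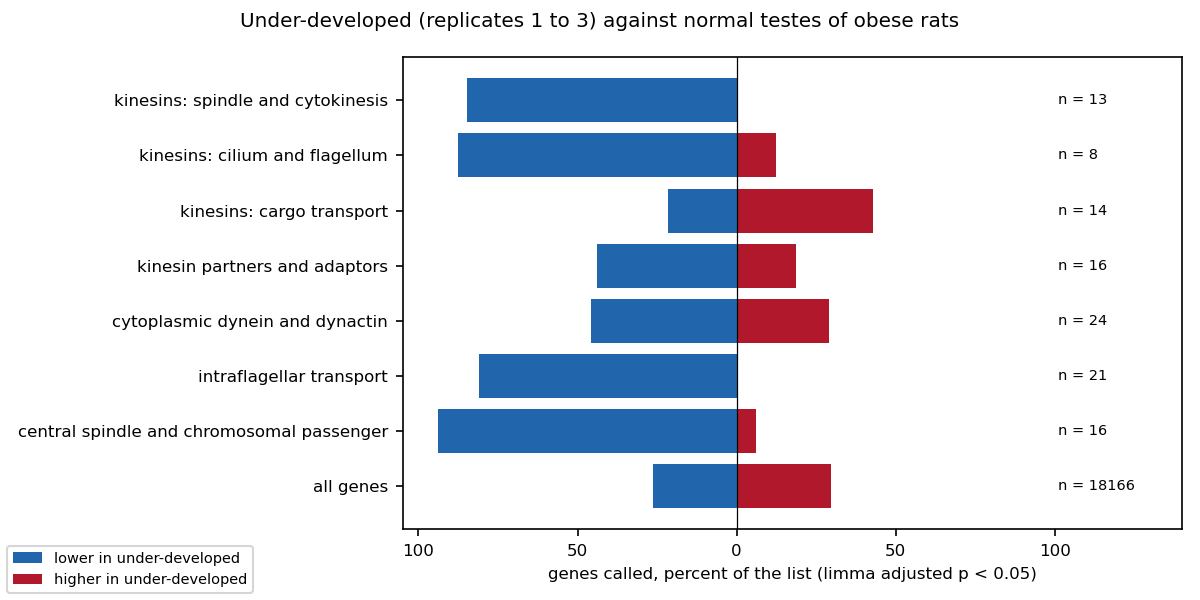
Share of genes called by limma at an adjusted p under 0.05 without under-developed replicate 4 (x axis, percent), lower in under-developed testes to the left and higher to the right, for kinesin roles, partner lists and all 18166 genes. Spindle kinesins had 11 of 13 genes lower and 0 higher, and cargo transport kinesins 3 lower and 6 higher.

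The letters of the kinesin promoters were read from RefSeq (build GRCr8), which held 31 of the 38 genes, in a window of 250 bases before to 50 after 1 start site per gene. That start lay at the outer boundary of the gene in 10 genes and inside it in 21, by over 250 bases in 8, so these windows may miss the promoter used in testis. GTTGCC, the core letters bound by the RFX factors of ciliated cells, stood on either strand in 5 of 7 promoters of ciliary kinesins (71.4%), against 12.2% of all 27457 promoters, and in 2 of 11 of spindle kinesins and 1 of 11 of transport kinesins. TTTGAA, the letters of the cell cycle homology element, stood in 5 of 11 promoters of spindle kinesins (45.5%), against 18.1% of all, and in 0 of 7 of ciliary kinesins. CCAAT, the NF-Y box, stood in 6 of 11 promoters of spindle kinesins (54.5%), against 37.7% of all. TGACGTCA, the full cyclic AMP response element, stood in 4 of the 31 (12.9%, against 1.91%), GGGCGG in 24 (77.4%, against 34.9%) and TATAAA in 3 (9.68%, against 14.3%). These 6 motifs were searched on both strands, with overlapping matches counted, and a match of letters is a description and not a shown binding site.

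Promoters of 3 ciliary kinesins with GTTGCC (Kif27, Kif9 and Kif3a), of Kif20b, a spindle kinesin with the cell cycle element and the NF-Y box, and of Kif5b, the transport motor with the largest rise, are shown 5′ to 3′ on the strand of the gene. Capitals mark matches to these 3 motifs on either strand, and Kif20b has 2 copies of the cell cycle element next to each other. The start used lies inside the outer gene boundary by 29 bases in Kif27, 85 in Kif9, 382 in Kif3a and 118 in Kif20b, and at it in Kif5b.
Kif27, chr17:6304739-6305038, + strand: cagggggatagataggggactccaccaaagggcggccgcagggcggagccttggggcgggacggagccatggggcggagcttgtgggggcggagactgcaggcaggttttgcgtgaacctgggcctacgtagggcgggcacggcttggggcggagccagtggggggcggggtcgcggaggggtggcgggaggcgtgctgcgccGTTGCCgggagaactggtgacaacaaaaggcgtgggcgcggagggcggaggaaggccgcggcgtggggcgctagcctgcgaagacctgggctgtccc
Kif9, chr8:119337849-119338148, + strand: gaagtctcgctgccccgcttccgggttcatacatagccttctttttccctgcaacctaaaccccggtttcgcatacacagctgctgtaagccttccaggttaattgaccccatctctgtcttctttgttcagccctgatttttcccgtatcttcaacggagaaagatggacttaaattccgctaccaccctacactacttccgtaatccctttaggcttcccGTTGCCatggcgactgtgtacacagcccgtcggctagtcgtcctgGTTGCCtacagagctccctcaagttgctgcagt
Kif3a, chr10:38226520-38226819, + strand: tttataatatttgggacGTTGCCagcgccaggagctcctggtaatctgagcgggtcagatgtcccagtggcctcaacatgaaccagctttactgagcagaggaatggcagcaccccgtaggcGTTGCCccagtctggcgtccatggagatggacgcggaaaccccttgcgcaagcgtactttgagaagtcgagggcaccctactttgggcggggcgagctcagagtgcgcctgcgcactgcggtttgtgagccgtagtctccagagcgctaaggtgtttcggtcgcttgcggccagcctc
Kif20b, chr1:241840766-241841065, + strand: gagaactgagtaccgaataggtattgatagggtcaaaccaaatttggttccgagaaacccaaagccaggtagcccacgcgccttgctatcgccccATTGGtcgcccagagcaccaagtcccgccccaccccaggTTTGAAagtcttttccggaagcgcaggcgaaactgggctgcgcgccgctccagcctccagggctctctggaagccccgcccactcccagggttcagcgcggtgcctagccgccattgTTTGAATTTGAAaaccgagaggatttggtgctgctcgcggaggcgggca
Kif5b, chr17:56185136-56185435, + strand: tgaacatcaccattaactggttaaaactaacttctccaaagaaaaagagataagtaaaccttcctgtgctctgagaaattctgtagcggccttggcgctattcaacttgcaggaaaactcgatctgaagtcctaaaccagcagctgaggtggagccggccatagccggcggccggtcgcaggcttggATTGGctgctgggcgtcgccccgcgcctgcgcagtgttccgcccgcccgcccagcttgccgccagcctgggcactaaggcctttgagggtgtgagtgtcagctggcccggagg
The first 4 belong to genes that fell without replicate 4, and Kif5b, which has the NF-Y box and no match to the other 2 motifs, to one that rose. GTTGCC also stood in the promoters of Kif13a and Kif3c, which rose. Kif2c and Kif18b, which fell, had none of these 3 motifs. A link between motif and direction was not tested.

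The comparison of normal testes of obese and lean rats addresses obesity without under-development. Limma called 0 of the 38 kinesin genes (0.0% of all genes), and 0 had an unadjusted p under 0.05 (0.44% of all genes did, 0.121% higher and 0.319% lower). The differences ran from −0.22 to 0.17 log2, with SDs among the normal obese arrays of 0.02 to 0.18. Klc4 had the smallest p, with 6.29, 6.39, 6.27 and 6.41 log2 in normal obese testes, against 6.42 and 6.70 in normal lean testes, a difference of −0.22 ± 0.15 (limma, unadjusted p = 0.181, adjusted p = 1). Kif1a came next, with 6.62, 6.77, 6.57 and 6.72, against 6.52 and 6.56, a difference of 0.13 ± 0.13 (unadjusted p = 0.352). With 2 lean arrays, small differences were not detectable. The fit also shared the wide spread of the under-developed arrays, so the SE of this difference reached 1.16 log2 (Kif2b). In genes with such an SE larger differences could be missed too. Fitted on these 2 groups alone, limma called 0 kinesin genes and 1 of all 18166 genes. In that fit 1 kinesin gene had an unadjusted p under 0.05, against 1141 of all genes.

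Set against normal testes of lean rats, under-developed testes gave counts like those above, but that comparison shares the under-developed arrays and is no independent evidence. Limma called 0 of the 38 genes with all arrays (0.0% of all genes), where 15 had an unadjusted p under 0.05 (6 higher and 9 lower, against 31.8% of all genes, 17.5% higher and 14.3% lower), and 22 lower and 7 higher without replicate 4 (48.8% of all genes were called, 23.2% lower and 25.6% higher). Without replicate 4 Kif2c differed by −3.07 ± 0.75 log2 (limma adjusted p = 9.11e-03), Kif27 by −2.92 ± 0.80 (adjusted p = 0.0154), Klc3 by −1.26 ± 0.11 (adjusted p = 1.97e-04) and Kif5b by 1.43 ± 0.17 (adjusted p = 3.66e-04).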

How the data were processed

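RNA of 10 rat testes was measured on Affymetrix arrays. Per the labels' protocols, RNA was extracted with Trizol and labelled with the WT PLUS kit. As deposited, each probe set has a log2 expression value, which the authors made with RMA per the submitters' processing notes. Its version and settings and the genome build are not given in the sources used here. RMA scales arrays to a like distribution, so values are relative to the whole array.

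Of 36685 probe sets, 18511 named 1 gene, 575 several and 17599 none here. Gene numbers were matched to RefSeq GRCr8 for current symbols (18394 matched). For 291 genes with several probe sets the one with the highest mean was kept, which gave 18166 genes. Limma 3.58.1 in R 4.3.3 (lmFit, eBayes) was fitted to all 10 arrays with a mean per group, and p-values were adjusted by Benjamini-Hochberg over all genes, two-sided, at 0.05. The fit was tested on simulated data with the spread of the normal obese arrays in every group. The simulated under-developed arrays all shifted alike, unlike the real ones, so how the fit performs on such an uneven group was not tested. Tables and plots used Python 3.11.15, pandas 2.3.3 and matplotlib 3.10.9. Precision is limited by the number of arrays.

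The kinesin members, roles and partner lists were chosen with earlier results of these data known. Named genes were the 10 lowest and 10 highest differences, 11 chosen kinesins that were measured, and the 2 with the smallest p for obese against lean, and other members are given by values or ranges. Of each partner list the rule took the 2 lowest and 2 highest, of which a selection is given, and Kifap3 was added after its values were seen. Kif4b was put among the spindle genes when the annotation was read. Alternatives covered scaling, an offset of 50, a dim filter, probe set means, moderation, array weights, a fit of 2 groups, a replicate block, omission of each array and a permutation test.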

Additional observations from a re-analysis of the deposited data

Results flagged for a closer look

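In 5 of 76 sets of 4 arrays (38 genes in 2 groups), an array stood apart from the others, where chance flags about 1 in 20. Under-developed replicate 4 had the highest Kif26b, at 6.60 log2, against 5.90 to 5.96 in the other under-developed arrays. Among normal obese arrays, Kif11 was lowest in replicate 1, at 8.21 against 8.31 to 8.33, and Kif5c lowest in replicate 4, at 7.94 against 8.16 to 8.20. Kif28p was highest in normal obese replicate 2, at 5.96 against 5.80 to 5.82, as was Kif2a, at 8.66 against 8.56 to 8.57.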

How the results depend on the processing

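In obese rats, limma called 0 kinesin genes between under-developed and normal testes with all arrays. It called 32 (all lower) with Sertoli centring, where 13519 of all 18166 genes were called, and 29 with array weights, where 9862 were. Array weighting gave under-developed arrays weights of 0.967, 0.282, 0.186 and 0.0619 and normal obese arrays 2.42 to 2.75. Omitting 1 array at a time gave 0 to 29, the 29 without under-developed replicate 4, where 10171 of all genes were called. With that array left out, scalings added after seeing the data gave 28 (median), 29 (quantile), 34 (ribosomal protein) and 34 (Sertoli). Of all genes they called 9901, 9653, 14861 and 16738. Against normal lean testes the count of 0 became 30 with array weights (9620 of all genes) and 0 to 29 on omitting 1 array (8866 of all genes without under-developed replicate 4). Under the same added scalings it was 29, 26, 33 and 34, with 8910, 8396, 14765 and 16553 of all genes called. The count for obese against lean normal testes was 0 under each alternative run. Of 543 values of 25 named genes under the alternatives to all arrays, 464 kept direction and side of the threshold, 57 passed it and 22 turned sign, and the cause was not tested. With Sertoli centring the turned values were −0.11 (Kif13a), −0.30 (Kif13b), −0.80 (Kif1a), −0.14 (Kif1c), −0.96 (Kif26a), −0.57 (Kif3c), −1.05 (Kif4b), −0.01 (Kif5b), −0.09 (Klc1) and −0.66 (Klc2), and with ribosomal protein centring −0.25 (Kif1a), −0.41 (Kif26a), −0.02 (Kif3c), −0.50 (Kif4b) and −0.11 (Klc2). Kif4b also gave −0.07 (median centring), −0.06 (quantile), −0.05 (array weights), and −0.10 to 0.10 on omitting 1 array (−0.04 without normal obese replicate 2, −0.01 without under-developed replicate 4), and Klc4 gave 0.06 without under-developed replicate 2. The dim filter left 26 of 38 members. With the replicate number as a block the count stayed 0, with 25 against 27 kinesin genes at an unadjusted p under 0.05. Same-numbered under-developed and normal obese arrays deviated together at r of 0.077, 0.007, 0.024 and 0.26. The under-developed arrays differ so widely among themselves that this check cannot show whether same-numbered arrays share an animal.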
